A study of Rattus norvegicus with 22 samples.

Results

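Potassium channel genes were followed in rat engineered cardiac tissues exposed to cyclic stretch, to the p38 inhibitor BIRB796 or to both. The members are the array probes whose gene name begins with Kcn and whose signal was well above the local background on 4 or more of 22 arrays. That rule kept 109 of 124 Kcn probes, for 81 of 92 Kcn gene names, among 26884 probes of any gene that passed the same requirement. The members were thus chosen by their signal over background on these arrays, so detection is given as a description and supports nothing. The threshold lay among very weak probes. Just inside it, on 4 arrays each, stood probes for Kcna10, Kcnip1 and Kcnj2. Just outside, on 3 arrays each, stood Kcng4, Kcnj10 and Kcnj15, and 5 Kcn probes were above background on no array.

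The tissues were cast from matrix mixed with embryonic ventricle cells (Sprague Dawley rats, gestational day 14.5) and were cultured for 7 days between 2 anchors. Of the 22 tissues, 4 received stretch together with BIRB796, 4 received BIRB796 without stretch, 7 received stretch alone, and 7 controls received neither. Stretch was uniaxial at 0.5 Hz with 5% elongation, BIRB796 was used at 10 µM, and both treatments were applied to tissues of culture day 5. Whether the controls received a vehicle is not given in the sources used here. Each array measured total RNA of a whole tissue, so fewer cells of a type and less RNA per cell cannot be told apart. The design text calls the replicates biological, without naming litters or cell pools.

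Potassium channels let potassium leave the cell and so bring the membrane back to rest. In ventricular myocytes voltage-gated Kv channels repolarise the action potential, inward rectifiers of the Kcnj family hold the resting potential, and background channels with 2 pore domains in each subunit, the Kcnk family, add a leak that some members open in response to membrane tension. Small auxiliary proteins (Kcne, Kcnip, Kcnab, Kcnmb) bind the pore-forming subunits and set their gating, and channels opened by calcium couple the membrane to intracellular calcium.

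Scanning took place in 3 sessions. The first, session 1, held 3 stretch and 3 control arrays, 1 of each on each of 3 slides. Session 2 held 4 stretch arrays alone, and session 3 held the 4 stretch plus BIRB796, the 4 BIRB796 and the remaining 4 control arrays. Between 82.6% and 91.3% of the probes were well above background on the arrays of session 1, between 65.5% and 73.1% in session 2, and between 71.4% and 79.9% in session 3. Stretch replicates 4 and 5 differed by less than the measurement noise (0.520 of it), which is the within-array spread among same-probe spots. They were therefore counted as 1 sample, leaving 21 samples. Stretch replicate 7, the array of session 2 with 65.5%, differed from the other stretch arrays by 10.8 to 13.4 times that noise. It was kept. All 12 cardiomyocyte markers examined were well above background on all 22 arrays. Levels are log2 signals relative to each array's 75th percentile, so that a difference of 1 is a 2-fold difference. They are set side by side within a probe, save where a probe is called stronger or weaker and in sums over marker lists. The brightest probes weigh most in those sums.

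Detection of the channel probes differed between the sessions, which hold different treatments and numbers of arrays. Of the 109 probes, 91 were well above background on all 6 arrays of session 1, 52 on all 4 arrays of session 2 and 70 on all 12 arrays of session 3, and 49 were so on every array. The controls of session 1 read higher than those of session 3 for 86 of the 109 probes, by a median of 1.30 log2 units, against 0.45 over all 26884 probes. Among the 49 channel probes detected on every array the median was 0.60, against 0.18 over all probes detected on every array. The channel probes are therefore compared within a session, or with session as a term of the model. No member was saturated on any array.

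**Figure D1:**
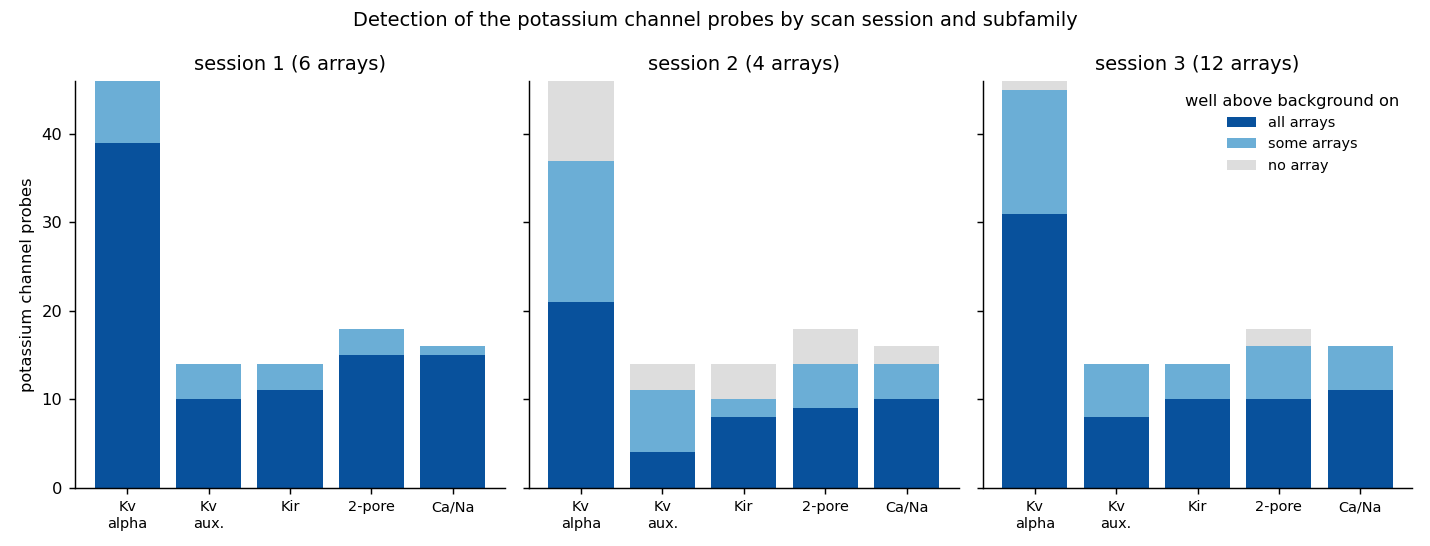
Number of potassium channel probes (vertical axis) that were well above background on all, some or none of the arrays of each scan session, by subfamily. The bars of session 2 show the most probes detected on no array, and 3 of the 109 probes were above background on no array of session 3.

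With all 21 samples in one limma model with a term for session, no potassium channel probe passed an adjusted p of 0.05 in any of 6 comparisons. For stretch plus BIRB796 against control, 21 of 26884 probes passed (0.0781%) and none was a channel probe. Without stretch replicate 7, which enters only the spread, 198 probes passed there (0.736%), 2 of them channel probes (1.83% of the members). For the other 5 comparisons (stretch against control, BIRB796 against control, stretch plus BIRB796 against BIRB796, stretch plus BIRB796 against stretch, and the difference of the 2 stretch effects) the share called was 0%. At an unadjusted p under 0.05 the model gave 17 channel probes for stretch plus BIRB796 against control (15.6%), where 9.46% of all probes stood, and 16 for BIRB796 against control (14.7%), where 6.28% stood. Stretch against control gave 4 channel probes, with 2.94% of all probes, and stretch plus BIRB796 against BIRB796 gave 2, with 1.89%. Stretch plus BIRB796 against stretch gave 10, with 2.25%, and the difference of the stretch effects gave 1, with 1.41%. This model does not pair the slides of session 1. With slide as a fixed block in session 1 alone, stretch against control gave 10 of the 109 channel probes, 9 higher and 1 lower. Beside them stood 1140 of 26884 probes, 556 higher and 584 lower. With slide as a random block over all arrays, stretch against control gave 10 of the 109, 8 higher and 2 lower. Beside them stood 2237 of 26884 probes, 1082 higher and 1155 lower. No channel probe passed an adjusted p of 0.05 for stretch in either fit.

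A fit of session 3 alone, which takes its spread from the 12 arrays scanned together, called members in both comparisons with the untreated tissues. In that fit 5 channel probes were higher in stretch plus BIRB796 tissues than in controls, where 3.33% of all probes were called higher, and 8 were lower, where 4.14% were. BIRB796 alone gave 3 higher (0.748% of all probes) and 3 lower (1.03%). Stretch plus BIRB796 against BIRB796 gave none, with 0.0744% of all probes called. The shares of the members were 4.59% and 7.34% for the combination and 2.75% each way for BIRB796. These counts depended on single arrays. For the combination, leaving out 1 array of session 3 left between 2 and 16 calls. There were 2 without control replicate 5 (1.83% of the members, beside 0.402% of all probes), 5 without control replicate 4 or 6 (4.59%, beside 0.737% and 0.599%), and 8 and 7 without stretch plus BIRB796 replicate 1 or 4 (7.34% and 6.42%, beside 2.37% and 2.42%). The 16 came without control replicate 7, where the share of the members, 14.7%, lay below the 16.4% of all probes. For BIRB796 alone there were between 0 and 11 calls. There were none without control replicate 4, 5 or 6 or BIRB796 replicate 2 or 4, where at most 0.0409% of all probes were called. There was 1 (0.917% of the members) without BIRB796 replicate 1 or 3 or stretch plus BIRB796 replicate 3 or 4, beside 0.257%, 0.617%, 0.774% and 0.673% of all probes, and there were 2 without stretch plus BIRB796 replicate 2 (1.83%, beside 297 of the 26884 probes). The 9 without stretch plus BIRB796 replicate 1 were 8.26% of the members, beside 3.69%, and the 11 without control replicate 7 were 10.1%, beside 9.65%. The spread among replicates differed by session: the median SD of a channel probe was 0.35, 0.34 and 0.30 log2 units in the stretch plus BIRB796, BIRB796 and control tissues of session 3, against 0.56 in stretch and 0.37 in control tissues of session 1 and 0.63 in stretch tissues of session 2.

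Counted by samples rather than by a model, 19 channel probes were lower in all 4 stretch plus BIRB796 tissues than in every control of session 3, where 7.70% of all probes were, and 8 were higher, where 9.11% were. For BIRB796 alone 14 were lower throughout (6.97% of all probes) and 6 higher (4.86%). Against BIRB796, stretch plus BIRB796 gave 3 lower (1.72%) and 0 higher (4.60%). In session 1, 4 channel probes were higher in all 3 stretch tissues than in all 3 controls (4.56% of all probes) and 2 were lower (4.21%). As shares of the members these counts were 17.4% lower and 7.34% higher for the combination, 12.8% lower and 5.50% higher for BIRB796, 2.75% lower for the combination against BIRB796, and 3.67% higher and 1.83% lower for stretch. Both comparisons with control share the same 4 control tissues, so they are not independent of each other.

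**Figure D2:**
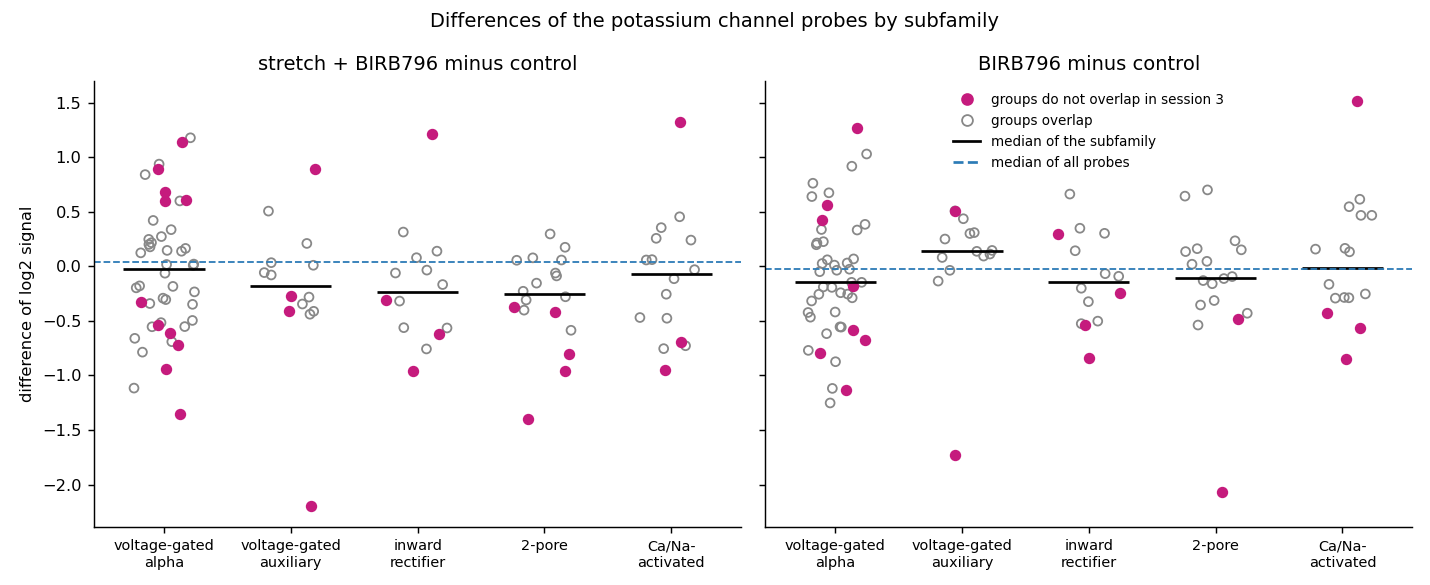
Difference of log2 signal of each channel probe (points) for stretch plus BIRB796 minus control and for BIRB796 minus control, by subfamily. Filled points are probes whose 2 groups do not overlap in session 3, black lines are subfamily medians and the dashed line is the median of all 26884 probes. Kcne3, at -2.20, is the lowest point on the left, and Kcnk1 on the right, at -2.07 from a probe that was well above background on 1 of 4 BIRB796 arrays.

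The median channel probe differed by -0.15 log2 units for stretch plus BIRB796 minus control, beside 0.04 over all probes. For the 49 channel probes detected on every array the median was 0.06, and so was that of all probes detected on every array. For BIRB796 minus control the channel median was -0.04 and that of all probes -0.02. Stretch minus control gave 0.06 and 0.05, and stretch plus BIRB796 minus BIRB796 gave -0.10 and 0.05. For stretch plus BIRB796 minus stretch, which no session holds together, the channel median was -0.21 and, over the probes detected on every array, -0.23 beside 0.03 for all such probes. The difference of the stretch effects gave -0.18 and, over the probes detected on every array, -0.20 beside 0.03.

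Probes behind some of the larger differences of session 3 are given here, so that a reader can see which stretch of which transcript was read. The size for Kcnk1 rests on values at the background. Each line holds the first 30 of the 60 bases of a probe, 5′ to 3′, and the place of the whole probe on build rn4 as the scanner files give it. Whether these places lie in coding sequence or in a UTR is not given in the sources used here.
Kcna4 (chr3:92784662-92784721, plus strand): ggaagaatggtttcttcgtctcatttattg
Kcna5 (chr4:162896330-162896389, minus strand): gtagctgtcctctagaaaagtgtcacctca
Kcne3 (chr1:157564373-157564432, plus strand): tatacaagatcaacgagaaattggtaagag
Kcne4 (chr9:78202033-78202092, plus strand): acatccatcagaattcctagcatccccagg
Kcnj1 (chr8:32163190-32163248, plus strand): gtgtgaaggtcttgtttcttcatttccata
Kcnk1 (chr19:56255238-56255297, plus strand): caggttaatctgagaattctacgtttagaa
Kcnmb1 (chr10:18912216-18912275, plus strand): tcagaagtagaccaatctcttctgcacagc

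Among the pore-forming Kv subunits, Kcna4 and Kcna5 differed in opposite directions in the tissues that had received BIRB796. Kcna4 encodes Kv1.4, which carries the slow transient outward current. Its log2 signal was -5.50, -4.30, -4.62 and -4.74 in stretch plus BIRB796 tissues, -4.98, -4.39, -4.49 and -4.42 in BIRB796 tissues and -3.14, -3.47, -3.38 and -3.78 in the controls of session 3. Neither treated group overlapped the controls. The difference from control was -1.35 ± 0.36 (SE) for the combination, a 2.55-fold lower signal, with an adjusted limma p of 0.169 over all arrays and 0.0164 in session 3 alone. For BIRB796 it was -1.13 ± 0.36, with 0.426 over all arrays and 0.0463 in session 3 alone. In session 1 the same probe read -4.46, -4.15 and -4.0 in stretch and -3.62, -3.37 and -3.83 in control tissues, without overlap and lower under stretch on all 3 slides, and that difference of -0.59 ± 0.41 did not pass (adjusted p = 1.00).

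Kcna5, which encodes the Kv1.5 channel of the ultrarapid delayed rectifier current, was 2.21-fold higher under the combination. It read -3.41, -3.71, -3.88 and -4.0 in stretch plus BIRB796 tissues, -3.34, -3.72, -3.74 and -3.69 in BIRB796 tissues and -5.09, -4.85, -5.19 and -4.44 in controls. All 8 tissues with BIRB796 lay above all 4 controls of the session. The differences from control were 1.14 ± 0.46 for the combination (adjusted p = 0.418 over all arrays, 0.0128 in session 3 alone) and 1.27 ± 0.46 for BIRB796 (0.548 and 0.0201). Stretch alone gave 0.00 ± 0.53, with -3.84, -3.50 and -5.34 in stretch and -4.01, -4.31 and -4.36 in control tissues of session 1, groups that overlapped.

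Kcna6, a Kv1 subunit best known from neurons, was read by 2 probes on chromosome 4, and both were higher under the combination.
Kcna6, first probe (chr4:163119201-163119260, minus strand): ggccgtgactcaatctagcttttgtgaaga
Kcna6, second probe (chr4:163120427-163120486, minus strand): tggtgtcacggtccctcattgtgcctcagt
The first read -1.28, -1.24, -1.42 and -1.29 in stretch plus BIRB796 tissues, -1.85, -1.66, -1.37 and -1.68 in BIRB796 tissues and -2.22, -2.32, -2.35 and -1.91 in controls. Its difference from control was 0.89 ± 0.26 for the combination (adjusted p = 0.223 over all arrays and 0.00851 in session 3 alone) and 0.56 ± 0.26 for BIRB796 (0.78 and 0.0463). The second gave 0.60 ± 0.27 for the combination (0.49 and 0.0252) and 0.33 ± 0.27 for BIRB796 (1.00 and 0.194). In session 1 the first probe was higher in all 3 stretch tissues, at -1.10, -1.30 and -1.69, than in the controls, at -1.70, -1.75 and -2.25, while the second overlapped (differences 0.53 ± 0.30 and 0.05 ± 0.31, neither past the test).

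Kcna7, a Kv1 subunit of skeletal muscle and heart, had one of the smallest p for a larger stretch effect with BIRB796 than without it, on a probe above background on 5 arrays only. That probe read -10.62, -9.88, -5.51 and -8.79 in stretch plus BIRB796 tissues, -9.51, -9.01, -10.74 and -10.78 in BIRB796 tissues and -9.99, -8.92, -10.84 and -8.42 in controls, and stretch plus BIRB796 replicate 3 stood above all the others. The difference of the effects was 1.60 ± 1.23 (adjusted p = 1.00), against -0.05 ± 0.50 on the other Kcna7 probe, which was above background on all 22 arrays.

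The remaining subunits of the transient outward current did not move together. Kcnd2 and Kcnd3 encode Kv4.2 and Kv4.3, the pores of its fast component. Kcnd3 read -7.34, -6.58, -6.21 and -6.76 under the combination, -6.45, -6.67, -6.56 and -6.66 under BIRB796 and -5.89, -6.04, -6.02 and -6.04 in controls, and the controls lay above every treated tissue. The combination differed by -0.72 ± 0.44 (adjusted p = 0.713 over all arrays and 0.0449 in session 3 alone), BIRB796 by -0.58 ± 0.44 (1.00 and 0.128). Stretch replicate 3 of session 1 read -2.94 for this probe, above the 2 other stretch tissues at -5.89 and -4.99 and the controls at -5.88, -5.17 and -5.41.

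Both Kcnd2 probes pointed the other way. One read -4.46, -5.42, -5.24 and -5.03 under the combination, -3.74, -4.60, -6.36 and -4.86 under BIRB796 and -5.58, -5.49, -5.69 and -5.83 in controls, the other -6.03, -6.79, -6.76 and -6.66, -5.11, -5.99, -7.41 and -6.34 and -7.61, -7.13, -7.16 and -7.06. For both probes the 4 stretch plus BIRB796 tissues lay above the controls, and BIRB796 replicate 3 lay below most or all of them. The differences of the combination were 0.61 ± 0.43 and 0.68 ± 0.42 (adjusted p = 0.787 and 0.712 over all arrays, 0.446 and 0.328 in session 3 alone). Kcnip2, the calcium-binding partner of Kv4 channels, was above background on 9 arrays only, and on 1 array of each group in session 3, with a difference of -0.28 ± 0.35.

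Among the other delayed rectifier genes, no probe of Kcnq1, Kcne1, Kcnh2 or Kcnq3 passed over all arrays or in session 3 alone. Kcnq1, whose Kv7.1 pore carries the slow delayed rectifier, had a strong probe at 2.23, 2.16, 1.96 and 1.96 under the combination, 2.62, 2.31, 2.44 and 2.05 under BIRB796 and 2.37, 2.50, 2.44 and 2.31 in controls, a difference of -0.33 ± 0.36 for the combination that separated its 4 tissues from the controls and did not pass in session 3 alone (adjusted p = 0.118). The other Kcnq1 probe gave -0.06 ± 0.31, and the Kcnq1 partner Kcne1 gave 0.21 ± 0.32. Kcnh2, which encodes the ERG channel of the rapid delayed rectifier, had probes at -0.34 ± 0.26 and -0.55 ± 0.52 for the combination and -0.15 ± 0.26 and -0.80 ± 0.52 for BIRB796. The weaker of them was below background on all 4 arrays of session 2 and gave 1.05 ± 0.79 for the difference between the stretch effects with and without BIRB796 (adjusted p = 1.00). Kcnq3, an M-current subunit of neurons, read -5.15, -5.19 and -6.38 in stretch and -6.20, -6.01 and -6.64 in control tissues of session 1, higher on each slide, at 0.71 ± 0.34 (unadjusted p = 0.049, adjusted p = 1.00). Its other probe gave 0.33 ± 0.38 for stretch and was lower on 2 of the 3 slides. Under the combination the first probe was at -0.69 ± 0.29 and under BIRB796 -0.77 ± 0.29, both against the controls of session 3.

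Among the auxiliary subunits Kcne3 and Kcne4 stood at opposite ends. Kcne3 makes Kv7.1 channels stay open and is best known from epithelia. It read -7.12, -5.41, -6.04 and -5.64 in stretch plus BIRB796 tissues, -5.40, -4.81, -6.56 and -5.56 in BIRB796 tissues and -3.45, -3.96, -4.18 and -3.82 in controls, so that the lowest control lay above all 8 treated tissues. The combination differed by -2.20 ± 0.52, 4.60-fold lower (adjusted p = 0.127 over all arrays and 0.0185 in session 3 alone), and BIRB796 by -1.73 ± 0.52 (0.405 and 0.0622). Under stretch alone it was -0.03 ± 0.61, and its session 1 controls ranged from -6.72 to -4.32.

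Kcne4 inhibits Kv7.1 and Kv1 channels in expression systems. Its log2 signal was -3.28, -3.21, -3.13 and -3.66 under the combination, -3.77, -3.94, -3.50 and -3.62 under BIRB796 and -3.98, -4.34, -4.32 and -4.22 in controls. Every treated tissue exceeded every control. The combination differed by 0.89 ± 0.20 (1.86-fold, adjusted p = 0.103 over all arrays and 0.0123 in session 3 alone) and BIRB796 by 0.50 ± 0.20 (0.644 and 0.0856). Stretch plus BIRB796 against BIRB796 gave 0.39 ± 0.20 (adjusted p = 1.00), with overlapping groups, and stretch alone 0.02 ± 0.23.

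Kcnip3, Kcnab1 and Kcne2 passed neither over all arrays nor within a session. Kcnip3, a calcium-binding partner of Kv4 channels, gave 0.42 ± 0.24 for stretch plus BIRB796 against BIRB796. Kcnab1, a cytoplasmic beta subunit of Kv1 channels, had one of the smallest unadjusted p of the stretch comparison, 0.0312, at -1.10 ± 0.47, but its stretch tissues read -4.04, -3.38 and -5.32 and its controls -3.26, -3.87 and -2.33, and slide 2 went the other way. Its other probe gave -1.02 ± 0.63, with the same signs on the 3 slides. Kcne2, a partner of ERG channels, gave -1.15 ± 0.57 for stretch, and stretch replicate 1 at -8.97 carried that difference, the other stretch tissues standing at -5.75 and -6.10 and the controls at -5.71, -6.09 and -5.56.

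Among the inward rectifiers Kcnj1, the ROMK channel known from kidney tubules, had the smallest adjusted p of any member over all arrays. The probe with the wider detection read -7.09, -6.91, -7.03 and -6.61 under the combination, -6.44, -6.24, -6.57 and -6.68 under BIRB796 and -6.21, -5.93, -5.71 and -5.94 in controls. The 3 groups lay in that order, with the BIRB796 and the combination tissues overlapping each other and neither overlapping the controls. The combination differed from control by -0.96 ± 0.20 (1.95-fold lower, adjusted p = 0.0798 over all arrays and 0.00937 in session 3 alone), BIRB796 by -0.53 ± 0.20 (0.593 and 0.0763), and the combination from BIRB796 by -0.43 ± 0.20 (1.00 and 0.426). Stretch alone left it at 0.01 ± 0.23. A second Kcnj1 probe was above background on 1 of the 12 arrays of session 3, a control, and has only a bound there, and another was above background on no array.

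Among the genes of the classical cardiac inward rectifier currents, no probe passed over all arrays or in session 3 alone. Kcnj5, a pore subunit of the acetylcholine-gated channel, read 0.60, 1.18, 1.25 and 1.18 under the combination, 1.04, 1.08, 1.13 and 1.21 under BIRB796 and 1.32, 1.37, 1.33 and 1.41 in controls on its stronger probe. All treated tissues lay below the controls, by -0.31 ± 0.32 and -0.24 ± 0.32, and neither passed in session 3 alone (adjusted p = 0.167 and 0.347). Its weaker probe gave 0.08 ± 0.36 for the combination, so the probes disagree in sign. Its partner Kcnj3 gave -0.62 ± 0.34 and -0.56 ± 0.27 on 2 probes. Of the KATP channel pores, Kcnj11 gave -0.32 ± 0.27 and Kcnj8 0.31 ± 0.34, and for BIRB796 Kcnj8 gave 0.66 ± 0.34. Of the IK1 pores, Kcnj12 gave -0.57 ± 0.29, while the Kcnj2 probe was above background on 4 arrays and read near background elsewhere. Kcnj4 gave 1.21 ± 0.50, with -7.24, -7.12, -7.35 and -4.95 under the combination and -7.63, -7.76, -8.35 and -7.75 in controls, and a single tissue at -4.95 carried much of it.

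The Kcnk family holds channels that respond to membrane tension, and stretch alone did not separate the mechanically gated ones from the controls of session 1. Kcnk2 (TREK-1), Kcnk4 (TRAAK) and Kcnk10 (TREK-2) are the mechanically gated members. Kcnk2 was read by 3 probes, and under stretch they gave 0.05 ± 0.59, 0.10 ± 0.36 and 0.12 ± 0.49, each from 3 against 3 tissues. The strongest read -1.72, -1.46 and -2.0 in stretch and -1.33, -1.94 and -2.05 in control tissues of session 1. The Kcnk4 probe gave 0.04 ± 0.46 and the Kcnk10 probes -0.26 ± 0.51 and 0.56 ± 0.63. In the presence of BIRB796 the strongest Kcnk2 probe read -2.21, -2.03, -2.06 and -1.97 with stretch and -1.44, -1.44, -1.67 and -1.63 without it. Those groups did not overlap, at -0.52 ± 0.51 over all arrays (adjusted p = 1.00, and 0.264 in session 3 alone), while the other 2 probes gave -0.20 ± 0.32 and -0.11 ± 0.42.

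Kcnk1 (TWIK-1), a weakly conducting member, was the channel probe with the largest difference for BIRB796. It read -9.05, -7.13, -7.34 and -7.42 under the combination, -8.64, -7.94, -7.82 and -9.20 under BIRB796 and -6.37, -6.10, -6.14 and -6.73 in controls, well above background on 3, 1 and 4 arrays of these groups. BIRB796 differed from control by -2.07 ± 0.49, 4.19-fold lower (adjusted p = 0.228 over all arrays and 0.0418 in session 3 alone), and the combination by -1.40 ± 0.49 (0.33 and 0.0717). The size for BIRB796 rests on values at the background. In session 1 the probe read -3.94 to -2.72 in stretch and -3.53 to -2.98 in control tissues, a difference of -0.18 ± 0.57.

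Kcnk5 (TASK-2) and Kcnk13 (THIK-1) were lower under the combination. Kcnk5 read -3.60, -3.22, -3.51 and -3.44 under the combination, -3.10, -3.03, -3.16 and -2.68 under BIRB796 and -2.46, -2.64, -2.61 and -2.85 in controls. Its combination tissues lay below both other groups, by -0.80 ± 0.27 from control (adjusted p = 0.303 over all arrays and 0.0128 in session 3 alone) and by -0.45 ± 0.27 from BIRB796 (1.00 and 0.347). The stronger Kcnk13 probe read -2.39, -2.43, -2.46 and -2.70 under the combination and -1.42, -1.39, -1.19 and -2.17 in controls. It gave -0.96 ± 0.80 and the weaker one -0.42 ± 0.17 (adjusted p = 0.855 and 0.42 over all arrays, 0.0227 and 0.038 in session 3 alone). For BIRB796 the 2 probes gave -0.43 ± 0.80 and -0.48 ± 0.17 (1.00 and 0.516 over all arrays, 0.274 and 0.0461 in session 3 alone). In microglia THIK-1 is the main background potassium channel. Both genes were named after their values were seen.

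Kcnk6 (TWIK-2) was among the few members higher under stretch without overlap. It read 0.97, 0.68 and 0.67 in stretch and 0.41, 0.18 and 0.25 in control tissues, higher on each slide by 0.56, 0.49 and 0.42, for 0.49 ± 0.21 (unadjusted p = 0.0344, adjusted p = 1.00). Kcnk3 (TASK-1) gave -0.00 ± 0.26 for stretch and 0.06 ± 0.23 for the combination. Kcnk9 (TASK-3) gave -0.85 ± 0.37 for the combination against BIRB796 with an unadjusted p of 0.0334, but it was above background on no array of session 3 and the value compares background readings.

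Kcnmb1, the beta1 subunit of the large-conductance calcium-activated BK channel and a marker of smooth muscle, was the calcium-activated member with the largest difference under BIRB796. It read -3.52, -4.66, -4.52 and -4.41 under the combination, -3.56, -3.94, -4.55 and -4.31 under BIRB796 and -6.08, -5.60, -5.80 and -4.92 in controls, without overlap between treated and control tissues. BIRB796 differed from control by 1.51 ± 0.50, 2.85-fold higher (adjusted p = 0.449 over all arrays and 0.0433 in session 3 alone), and the combination by 1.32 ± 0.50 (0.37 and 0.0351). Stretch alone gave 0.10 ± 0.57. The BK pore Kcnma1 gave 0.16 ± 0.33, 0.61 ± 0.27 and 0.47 ± 0.53 for BIRB796 on 3 probes, and 0.24 ± 0.33, 0.35 ± 0.27 and 0.26 ± 0.53 for the combination.

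Most markers of smooth muscle and pericytes differed in the same direction as Kcnmb1. Of 10 markers tested, 8 were higher in all stretch plus BIRB796 tissues than in all controls and 7 in all BIRB796 tissues. Under BIRB796 1 marker, Des, was lower throughout (-0.20), and Smtn stood at -0.01. Under the combination both overlapped the controls. Session 3 alone called 5 higher for the combination and 3 for BIRB796. The summed linear signal of the list ran from 62.2 to 102.2 under the combination, from 59.1 to 87.2 under BIRB796 and from 39.9 to 52.4 in controls, in units of each array's 75th percentile. Myh11, smooth muscle myosin heavy chain, differed by 1.61 ± 0.28 for BIRB796 in that fit (adjusted p = 0.0289). None of the 10 was below background on any array. Their part in the Kcnmb1 result was not tested.

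Kcnmb4, the neuronal BK beta subunit, had the smallest p for higher signal under stretch. It read -1.30, -1.69 and -0.73 in stretch and -2.07, -2.01 and -1.91 in control tissues of session 1, higher on each slide, for 0.76 ± 0.30 (unadjusted p = 0.0233, adjusted p = 1.00). With BIRB796 present the stretched tissues read -1.75, -1.22, -0.82 and -0.77 and the unstretched -1.72, -1.11, -1.13 and -1.28, a difference of 0.17 ± 0.26, with overlap.

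The small-conductance channel gene Kcnn1 was lower on both its probes in session 3. The stronger read -6.59, -5.70, -5.74 and -6.15 under the combination, -5.88, -5.96, -5.88 and -5.94 under BIRB796 and -5.26, -5.33, -5.45 and -5.36 in controls. Its treated tissues all lay below the controls, by -0.69 ± 0.20 for the combination (adjusted p = 0.228 over all arrays and 0.0356 in session 3 alone) and -0.56 ± 0.20 for BIRB796 (0.552 and 0.101). The other probe gave -0.95 ± 0.29 and -0.85 ± 0.29. Kcnn2, known from atrial myocytes, was near background (10 arrays) and gave -0.47 ± 0.40, and Kcnn3 gave -0.48 ± 0.35.

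Kcnn4, the intermediate-conductance channel of leukocytes and proliferating cells, had the smallest unadjusted p of the difference between the stretch effects with and without BIRB796. Its probes gave -1.36 ± 0.63 (unadjusted p = 0.0444, adjusted p = 1.00) and -1.13 ± 0.56. In session 1 the first read -3.60, -3.57 and -4.70 in stretch and -4.20, -5.03 and -5.02 in control tissues, at 0.79 ± 0.47. With BIRB796 it read -5.82, -6.44, -6.37 and -7.25 in stretched and -5.38, -6.19, -6.13 and -5.93 in unstretched tissues, at -0.56 ± 0.41, overlapping. The difference of the effects did not pass the adjusted test. The summed signal of 10 macrophage and leukocyte markers ran from 63.0 to 78.8 under the combination, from 78.8 to 105.0 under BIRB796 and from 72.3 to 153.9 in controls of session 3, and from 29.6 to 58.6 in stretch and from 36.5 to 100.7 in control tissues of session 1. In session 3 alone 6 of the 10 were called lower for the combination against control. Their part in the Kcnn4 values was not tested.

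**Figure D3:**
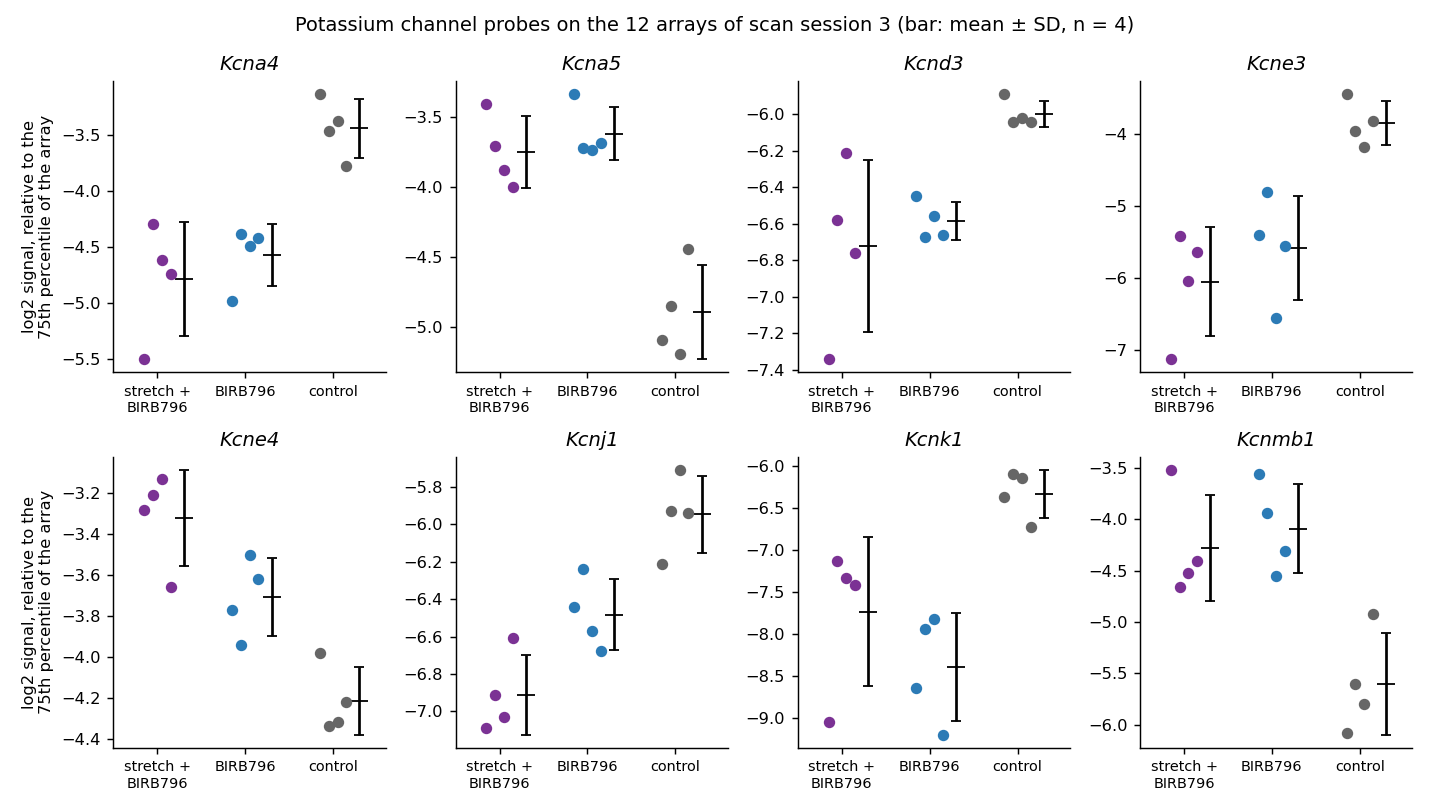
Log2 signal relative to the array's 75th percentile (vertical axes) of 8 channel probes on the 12 arrays of session 3, in stretch plus BIRB796, BIRB796 and control tissues. Points are tissues and bars the mean ± SD (n = 4). In each panel the stretch plus BIRB796 tissues and the BIRB796 tissues lie apart from the controls, lower for Kcna4, Kcnd3, Kcne3, Kcnj1 and Kcnk1 and higher for Kcna5, Kcne4 and Kcnmb1. The 8 probes were chosen among the members with their values known, so this separation is no further result.

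**Figure D4:**
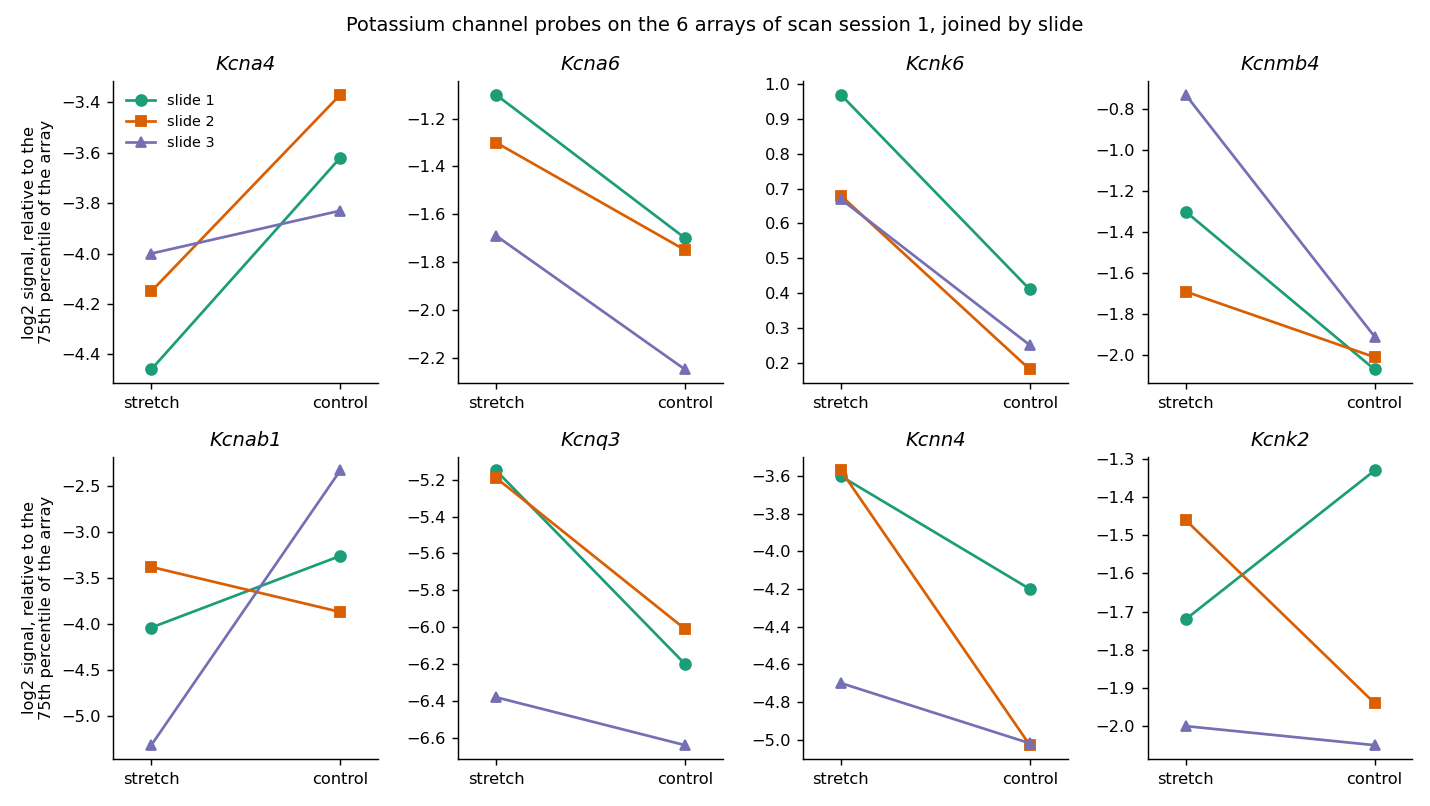
Log2 signal of 8 channel probes on the 6 arrays of session 1, stretch left and control right, with lines joining the arrays of a slide. Kcna6, Kcnk6, Kcnmb4, Kcnq3 and Kcnn4 were higher in the stretch tissue on all 3 slides and Kcna4 lower on all 3, while Kcnab1 and Kcnk2 differed in sign between slides. These 8 probes were also chosen with their values known, so agreement between slides is no further result.

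The arrays of session 3 also lay on 4 slides, which did not hold the groups evenly. On the slide that held 1 array of each group, stretch plus BIRB796 replicate 1 minus control replicate 4 was -2.36 for Kcna4, 1.68 for Kcna5, -3.67 for Kcne3, 0.70 for Kcne4 and -0.88 for Kcnj1. On the slide with 2 combination arrays and 1 control the values were -0.68, 0.64, -1.91, 1.05 and -1.03. BIRB796 replicate 1 minus control replicate 4, within the shared slide, was -1.84 for Kcna4, 1.75 for Kcna5, -2.27 for Kcnk1 and 2.52 for Kcnmb1. For all these probes every treated tissue of session 3 lay on one side of every control. The signs within a slide were thus fixed beforehand and do not check the uneven layout. The other 3 BIRB796 arrays shared their slide with no control. With slide as a random block in session 3, an alternative chosen after seeing the data, 14 channel probes were called for the combination (12.8% of the members, beside 6.99% of all probes) and 1, Kcna5, for BIRB796 (0.917%, beside 0.286%).

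Set against stretch alone, stretch plus BIRB796 gave no call, and no session holds both groups. The model therefore reaches this difference through the controls of sessions 1 and 3, and the values combine those already given. The smallest unadjusted p were those of Kcnq3 (-1.40 ± 0.44) and Kcnj1 (-0.98 ± 0.31) for a lower signal and of Kcne4 (0.88 ± 0.31) and Kcna5 (1.14 ± 0.70) for a higher one. The smallest adjusted p of any member was 1.00. The 4 stretch arrays of session 2 enter only the spread. For Kcnk2's strongest probe they read -1.83, -1.84, -1.51 and -5.13, and for Kcnmb4 -0.46, -0.51, -0.70 and -1.67.

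Probes of the same gene did not always point the same way. Of the 25 genes with 2 or 3 member probes, 19 had probes of one sign for stretch plus BIRB796 minus control, 19 for BIRB796 minus control, 17 for stretch plus BIRB796 minus BIRB796 and 14 for stretch minus control. The median gap between probes of a gene was 0.28, 0.23, 0.22 and 0.26 log2 units in these comparisons, and the widest was 1.30, for Kcna7 in stretch plus BIRB796 minus BIRB796.

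**Figure D5:**
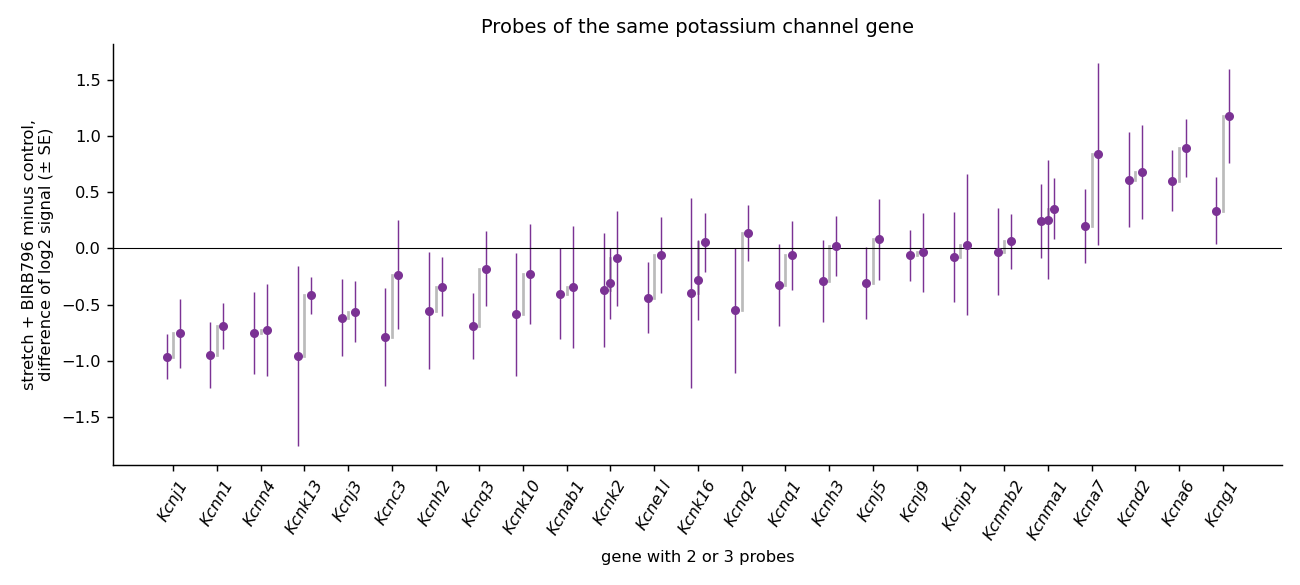
Stretch plus BIRB796 minus control, as difference of log2 signal (vertical axis), for each probe of the 25 genes with 2 or 3 member probes. Points are probes, bars the standard error of the fit and grey lines join probes of a gene. Both probes of Kcnj1, Kcnn1, Kcnn4, Kcnk13 and Kcnj3 lie below 0 and both of Kcnd2, Kcna6 and Kcng1 above it. The less widely detected Kcnj1 probe has only a bound in session 3, so its sign is no check on the other.

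Across the slides of session 1, 17 of 109 channel probes (15.6%) were higher under stretch on all 3, beside 14.98% of all probes, and 6 (5.50%) were lower on all 3, beside 9.98% of all probes.

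Genes that act with these channels but carry other names were read from a list of 29, with 1 probe each. None passed over all arrays for stretch, BIRB796 or the combination against control. In session 3 alone the combination called 3 of the 29 lower and 1 higher, where 4.14% and 3.33% of all probes were called. BIRB796 called 1 of the 29 higher, where 0.748% of all probes were. Means below carry the SD over 4 tissues. Among the lower were Abcc8, a sulfonylurea receptor of KATP channels (-1.83 ± 0.26 under the combination and -1.13 ± 0.07 in controls, adjusted p = 0.0216 by limma), and Atp1b2, a beta subunit of the sodium pump (0.40 ± 0.09 and 0.75 ± 0.08, adjusted p = 0.0426). Higher were Slc12a4, a potassium chloride cotransporter, under the combination (1.99 ± 0.08 and 1.55 ± 0.19, 0.0253), and Slc12a2, a sodium potassium chloride cotransporter, under BIRB796 (-1.27 ± 0.05 and -1.59 ± 0.06, 0.036).

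Other cell type markers also differed between the groups of session 3. Endothelial markers summed to between 1.27 and 1.76 under the combination, 1.68 and 2.17 under BIRB796 and 2.36 and 3.37 in controls, with 6 of 10 lower throughout under the combination and 1, Flt1, higher (0.60). Over all arrays 1 of the 10 passed for the combination, Esam, at -1.65 (adjusted p = 0.0286 by limma). Epicardial and mesothelial markers summed to between 3.06 and 5.84, 2.89 and 6.36, and 6.32 and 9.93 in the same groups, with 3 of 8 lower throughout under the combination and 6 of 8 under BIRB796. Cardiomyocyte markers summed to between 904 and 1028 under the combination, 820 and 965 under BIRB796 and 839 and 1174 in controls, and overlapped. Fibroblast markers summed to between 310 and 354, 247 and 307, and 210 and 340 in these groups. Neural and glial markers summed to between 1.14 and 2.33 under the combination, 0.826 and 3.03 under BIRB796 and 0.517 and 0.921 in controls. One gene, Stmn2, made most of that sum, and without it the ranges were 0.295 to 0.368, 0.217 to 0.354, and 0.241 to 0.370, which overlap. The list's median difference was -0.10 for the combination, 6 of the 10 genes were below 0, and session 3 alone called 3 lower and none higher. The part of these markers in the channel results was not tested.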

How the data were processed

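Total RNA of each tissue was labelled with Cy3 and hybridised to a 1-colour Agilent rat array, per the labels' protocols. Linear spot intensity in the deposited files had been background-subtracted by Feature Extraction (versions 10.7.1.1, 10.7.3.1 and 11.0.1.1, per the file headers) without normalization between arrays. A log2 table that the authors deposited served as an alternative. Its columns followed the scanner values of their own arrays (r = 1.00 over 27614 probes), and its baseline per probe is unknown.

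Control spots and outlier spots were left out, log2 signals were averaged over the spots of a probe and scaled by subtracting the array's 75th percentile. All 26884 probes were fitted with limma 3.58.1 in R 4.3.3 (group and session terms, Benjamini-Hochberg adjustment, two-sided, called under 0.05), and fits were tested on simulated data. Precision is limited by the number of arrays. Gene names come from scanner files, and RefSeq (GRCr8) gives Kcnq5 for the probe named Kcnq5l and Kcne5 for Kcne1l. In session 1 stretch and control arrays of equal replicate number share a slide (r = 0.50, 0.14 and 0.56), but stretch replicate 2 correlated best with control replicate 1. In session 3 stretch plus BIRB796 and BIRB796 arrays of equal number share a slide for replicates 1 and 4 (r = 0.52 and 0.07). Those of replicates 2 and 3 do not (r = 0.02 and 0.09). These correlations do not settle whether the numbers pair tissues. Sessions and slides come from the headers.

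Named members are those called, the 2 with the smallest p each way per comparison, and a cardiac current list, with all their probes. Members and lists were chosen with earlier results of these data known. Alternatives changed scaling, normalization, filter, session and slide terms and left out each sample. One gene of the partner list is not reported here.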

Additional observations from a re-analysis of the deposited data

Results flagged for a closer look

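On 8 occasions a single tissue of session 3 stood far from the other 3 of its group for a named channel probe, and chance gives such a gap in about 1 in 20 groups. Stretch plus BIRB796 replicate 1 read -4.43 for Kcnab1 (others -4.05 to -4.0), 0.60 for the stronger Kcnj5 probe (others 1.18 to 1.25) and -9.05 for Kcnk1 (others -7.42 to -7.13), where it was not well above background. Stretch plus BIRB796 replicate 4 read -4.95 for Kcnj4 (others -7.35 to -7.12). BIRB796 replicate 1 read -4.98 for Kcna4 (others -4.49 to -4.39) and -3.34 for Kcna5 (others -3.74 to -3.69). Control replicate 4 read -5.89 for Kcnd3 (others -6.04 to -6.02), and control replicate 7 read -5.89 for Kcnq3 (others -5.24 to -5.16). These 8 came from 144 groups of 4 examined.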

How the results depend on the processing

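The count of potassium channel probes called was 0 over all arrays in each of the 6 comparisons. It stayed 0 under median scaling, quantile normalization, the deposited table, the filter on all arrays, no filter, every array apart, slide as a random block and the replicate block (paired by number), which changed no call. Without a session term, stretch plus BIRB796 against stretch had 2 calls (with 0.591% of all probes called). Normexp with quantile normalization, on median spot signals since the mean was in 4 files only, gave 1 for stretch plus BIRB796 against control (0.0967%). Leaving out each sample gave 0 to 2 there, with 1 without stretch replicate 3 or 6 and 2 without stretch replicate 7 or without stretch replicates 4 and 5 (0.153% to 0.736% of all probes). Session 3 alone gave 13 calls for stretch plus BIRB796 against control and 6 for BIRB796 against control, and with slide as a random block 14 and 1 (7.47%, 1.78%, 6.99% and 0.286% of all probes). Leaving out 1 array of session 3 gave 2 to 16 and 0 to 11 for them, with 16.4% and 9.65% of all probes called where the counts were highest. The second Kcna6 probe turned to -0.54 without a session term for stretch plus BIRB796 minus control. Why these values moved was not tested. Of the 109 probes, 60 were not above background on every array, and stretch and stretch plus BIRB796 share no session.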
